A study of Mus musculus with 6 samples.

Results

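Transcripts of 9 ligands of the tumour necrosis factor (TNF) superfamily and of the death receptor Fas were examined in regulatory T cells stimulated through EP4, a receptor for prostaglandin E2. The genes were chosen by name as Fasl, Fas, Tnf, Lta, Ltb, Tnfsf8, Tnfsf10, Tnfsf11, Tnfsf14 and Cd40lg, which are 10 of the 47643 reference genes in the tables. Earlier results of these data were known when they were chosen. The cells were natural regulatory T cells (nTregs) taken from the spleens of C57BL/6 mice of genotype Foxp3-DTR/EGFP, in which the locus of the lineage factor Foxp3 also yields a diphtheria toxin receptor and a green fluorescent protein. All libraries, controls included, came from cells that had been activated for 2 days with plate-bound antibody to CD3, antibody to CD28 and IL-2, and that were sorted on green fluorescence after treatment. The groups were vehicle (DMSO) and 100 nM of an EP4 agonist, each given for 6 h, with 3 libraries per group numbered 1 to 3. The labels do not tie the libraries of a group to separate mice or cultures, so the p-values speak only of library-to-library spread, part or all of which could be technical. The 7 markers of regulatory T cells that were checked (Cd3e, Cd4, Foxp3, Il2ra, Ctla4, Ikzf2 and Tnfrsf18) all stood above 20 FPKM in every library. They summed to 1889 to 2196 FPKM in vehicle and 2399 to 2500 FPKM in agonist libraries, without overlap, and their part in the results was not tested. None of the 7 passed limma's test without the replicate block described later. Of them 2 had an unadjusted p under 0.05, where 14% of all tested genes did. The block was read from the data and not from the labels, and 10.5% of all tested genes passed with it. With the block, Tnfrsf18 rose from 479 ± 139 to 737 ± 68.4 FPKM (SD, n = 3 per group; adjusted p = 0.0338) and Ikzf2 from 29.8 ± 4.29 to 36.8 ± 5.21 FPKM (adjusted p = 0.0268). With the block and without pair 1, 2 or 3 the limma adjusted p was 0.0359, 0.148 and 0.144 for Tnfrsf18 and 0.0589, 0.13 and 0.148 for Ikzf2. Ctla4 had 242 ± 35.5 and 379.6 ± 56.7 FPKM (limma, adjusted p = 0.156 without and 0.0711 with the block). The groups of Ctla4 and of Tnfrsf18 did not overlap, where 19.4% of all tested genes were so separated in either direction.

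Ligands of the TNF superfamily are made mostly as trimeric membrane proteins on activated lymphocytes and can be shed by proteases. They act on receptors that either carry a death domain and can start apoptosis, as Fas and the receptors of TRAIL do, or recruit TRAF adaptors and activate NF-kB. Fas ligand is known for its part in the contraction of activated T cells and in killing by cytotoxic lymphocytes, and lymphotoxins are known for the organisation of lymphoid tissue.

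Levels are given as FPKM, a fragment number divided by transcript length and by library depth. Comparisons between libraries still depend on the scaling, since 48 genes passed limma's test on FPKM and 75 with upper quartile scaling. Differences are given on the scale of log2(FPKM + 1), agonist minus vehicle, which understates the fold of genes with low FPKM. All 10 genes reached 1 FPKM in 3 or more libraries, the filter applied, and were tested with limma among 12186 genes. "Rose" and "fell" are used for an adjusted p under 0.05. The median ratio of deposited coverage to FPKM was 4.32 to 5.65 over the 6 libraries. It is read as gigabases of aligned sequence, which is uncertain because the program that gave both columns is unknown. In each library 53.9 to 54.9% of the rows above 0 FPKM lay close to that median.

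After 6 h of EP4 agonist, Fasl rose and no other of the 10 genes passed limma's test. The lymphotoxin and TNF genes Lta, Ltb and Tnf, which lie side by side on chromosome 17, had lower mean FPKM in agonist libraries. Of the 10 genes, 1 rose and 0 fell, where 0.394% of all tested genes passed in either direction, 0.345% higher and 0.0492% lower. At an unadjusted p under 0.05, limma gave 1 of them higher and 3 lower, where 14% of all tested genes passed that threshold, 5.22% higher and 8.74% lower. With the replicate number as a block, which compares libraries of the same number, Fasl, Tnfsf8 and Cd40lg rose and Lta and Ltb fell, where 10.5% of tested genes passed, 4.09% higher and 6.41% lower. The median difference over the 10 genes was -0.08, beside -0.03 over all tested genes. Because the genes were chosen with earlier results known, their counts beside shares of all tested genes, here and further on, are a description.

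**Figure D1:**
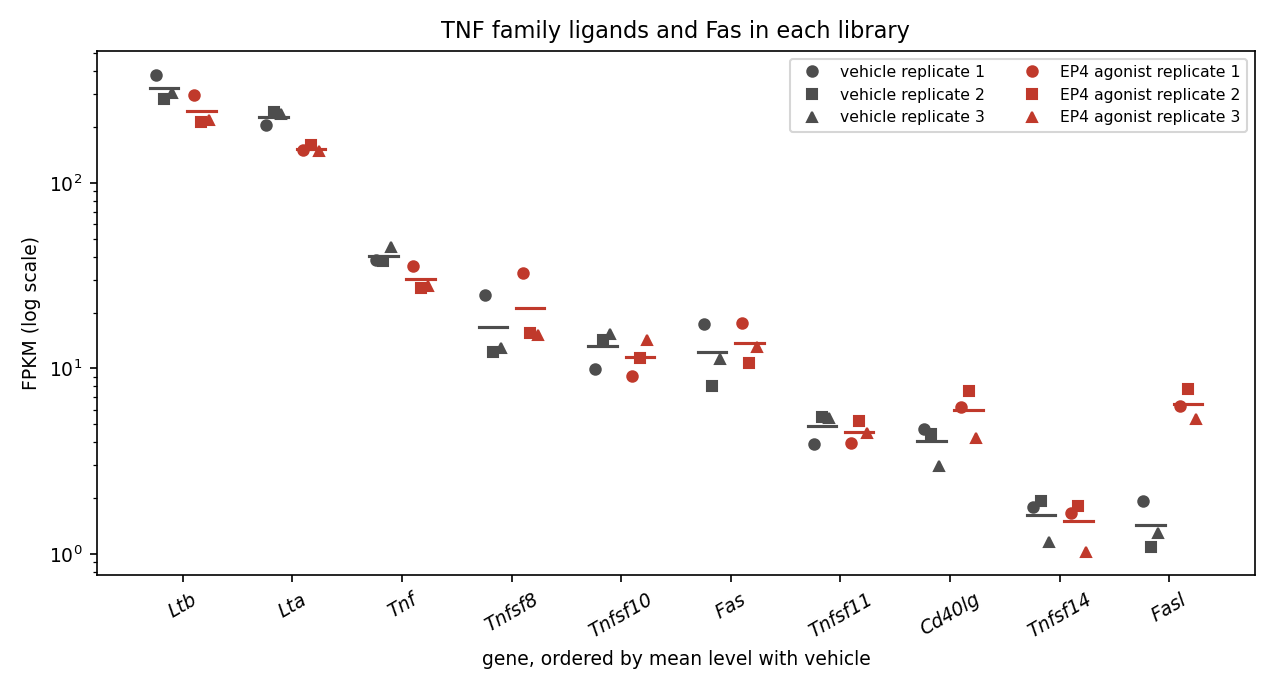
FPKM on a log axis of the 10 genes in each of the 6 libraries (grey, vehicle; red, EP4 agonist; marker shape, replicate number; bar, group mean). The 3 agonist values of Fasl, 5.30 to 7.70, lie above its vehicle values, 1.085 to 1.92, while those of Lta and Tnf lie below their vehicle values.

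Fasl encodes Fas ligand, the membrane protein that triggers apoptosis through Fas. The gene (ENSMUSG00000000817.10, minus strand of chromosome 1, 161780689 to 161788495, mm10) has 4 exons in its longest coding transcript in GENCODE M21, and no other reference gene model overlaps it. Its FPKM was 1.92, 1.085 and 1.30 in vehicle replicates 1 to 3 and 6.27, 7.70 and 5.30 in agonist replicates 1 to 3. Every agonist library lay above every vehicle library, and the lowest agonist value was above the highest vehicle value by more than the range within either group. The mean went from 1.43 ± 0.433 to 6.43 ± 1.21 FPKM (SD, n = 3 per group). The log2 difference was 1.61 with a standard error of 0.17 and a 95% interval of 1.21 to 2.02 (limma, adjusted p = 0.0200). In the pairs numbered 1, 2 and 3 it was 1.32, 2.06 and 1.46.

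The call of Fasl held without vehicle replicate 1 (limma, adjusted p = 0.0123) and was lost without any 1 of the other 5 libraries, while its size changed little. Leaving out vehicle replicate 2, vehicle replicate 3, agonist replicate 1, agonist replicate 2 or agonist replicate 3 gave limma adjusted p-values of 0.0753, 0.104, 0.0817, 0.0951 and 0.055. The log2 difference stayed between 1.49 and 1.75 in these fits. With the block and without pair 2 or pair 3 the adjusted p was 0.0982 and 0.0940, and without the filter on low values it was 0.134.

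The promoter of Fasl is shown because this gene passed the test, and the promoters of Lta, Tnf and Ltb further on because these neighbours were lower with the agonist. The windows, from RefSeq on GRCm38.p6, run from 250 bases before to 50 bases after the start that RefSeq gives, and 9 of the 10 genes had one; Cd40lg did not. Capitals mark matches, on either strand, to the core of the cyclic AMP response element (TGACG), to an NF-kB pattern (GGGA and CC with any 4 bases between) or to an AP-1 pattern (TGANTCA). Fasl (chr1:161788446-161788745, minus strand) held 1 match, to the cyclic AMP core on the opposite strand, 48 bases before the start.
Fasl: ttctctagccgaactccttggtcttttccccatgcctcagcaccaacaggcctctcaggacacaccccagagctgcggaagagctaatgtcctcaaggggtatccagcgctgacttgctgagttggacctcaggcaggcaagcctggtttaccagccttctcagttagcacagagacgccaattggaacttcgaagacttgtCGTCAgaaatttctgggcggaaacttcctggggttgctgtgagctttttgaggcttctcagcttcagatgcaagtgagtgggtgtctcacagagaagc

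The core TGACG is short, and 20.9% of 32544 promoter windows of this length held it. The full 8-base cyclic AMP response element was in 1.80% of windows and in 0 of the 9 here. The core of the NFAT site (GGAAA), which is not marked, was in 61.5% of windows and in all 9. Besides Fasl, only Tnfsf10 among the 9 held the cyclic AMP core. These matches describe letters in the windows and were not tested for binding.

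Fas encodes the receptor of Fas ligand. The gene (ENSMUSG00000024778.12, plus strand of chromosome 19, 34290659 to 34327770) had 17.4, 8.08 and 11.2 FPKM in vehicle replicates 1 to 3 and 17.5, 10.7 and 13.0 FPKM in agonist replicates 1 to 3. The groups overlapped, and the libraries numbered 1 were the highest in both groups. Its log2 difference was 0.19 with a 95% interval of -0.44 to 0.82 (limma, adjusted p = 0.802). Ligand and receptor were also set against each other within each library. The log2 ratio of Fasl + 1 over Fas + 1 was -2.65, -2.12 and -2.41 with vehicle and -1.34, -0.43 and -1.15 with the agonist. The means differed by 1.42 (two-sided exact permutation test, p = 0.1, the smallest that 3 against 3 libraries allow; 0.2 adjusted over 4 ratios).

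Tnfsf10 encodes TRAIL, a ligand that binds death receptors other than Fas. The gene (plus strand of chromosome 3, 27317028 to 27342427) had 9.98, 14.2 and 15.4 FPKM in vehicle libraries and 9.05, 11.4 and 14.2 FPKM in agonist libraries. The groups overlapped, and the libraries numbered 1 were the lowest in both. Agonist minus vehicle gave -0.18 with a 95% interval of -0.63 to 0.28 (limma, adjusted p = 0.738).

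NK cells and CD8 T cells also make Fas ligand, so their markers were read beside Fasl. The 6 NK markers summed to 2.21 to 5.70 FPKM per vehicle library and 3.26 to 9.65 FPKM per agonist library. The NK receptor genes Ncr1 and Klrb1c were at most 0.124 FPKM in any library, with lower means in agonist libraries. Prf1, the gene of perforin, had 0.744 ± 0.101 FPKM in vehicle libraries and 0.980 ± 0.123 FPKM in agonist libraries (SD, n = 3 per group), and its groups did not overlap. Prf1 did not pass the filter on low values and was not tested. Of all tested genes 7.27% had agonist values wholly above the vehicle values. Gzma, a granzyme gene, had 0.149, 2.69 and 0.752 FPKM with vehicle and 0.192, 4.17 and 1.05 FPKM with the agonist. Its highest vehicle library, replicate 2, had the lowest FPKM of Fasl. Klrd1 had 0.516, 1.33 and 0.392 FPKM with vehicle and 1.18, 3.76 and 0.6125 FPKM with the agonist. Gzma and Klrd1 were higher with the agonist in each same-numbered pair, with overlapping groups. Neither passed (limma, adjusted p = 0.891 and 0.5555 without the block, 0.249 and 0.107 with it). Both were highest in agonist replicate 2, as was Fasl. The 5 CD8 markers summed to 5.51 to 6.00 FPKM in vehicle libraries and 5.26 to 6.81 FPKM in agonist libraries, most of it Cd8b1. Of the 5 only Cd8b1 passed the filter on low values, and Cd8a was at most 0.506 FPKM in any library. The part of such cells in the level of Fasl was not tested. In RNA from sorted cells in bulk, fewer cells of a type and less RNA per cell cannot be told apart.

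Lta encodes lymphotoxin alpha, which is secreted as a homotrimer or held at the membrane by lymphotoxin beta. The gene (ENSMUSG00000024402.5, minus strand of chromosome 17, 35203165 to 35205351) had 205, 242 and 234 FPKM in vehicle replicates 1 to 3 and 149.9, 160 and 148 FPKM in agonist replicates 1 to 3. Every agonist library lay below every vehicle library. The log2 difference was -0.57 with a standard error of 0.09 and a 95% interval of -0.78 to -0.35, a mean FPKM 32.7% lower. It did not pass without the block (limma, adjusted p = 0.0684), and with the block Lta fell (adjusted p = 0.0180). Lta also passed without the block when vehicle replicate 1 was left out (adjusted p = 0.0278) and when coverage replaced FPKM (adjusted p = 0.0488). With the block it passed without pair 1 (adjusted p = 0.0402) and not without pair 2 or pair 3 (adjusted p = 0.104 and 0.102).

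Ltb encodes lymphotoxin beta, the membrane subunit that joins lymphotoxin alpha. The gene (ENSMUSG00000024399.5, plus strand of chromosome 17, 35194439 to 35196320) had the highest level of the 10 genes in every library. Its FPKM was 383, 282 and 306 with vehicle and 296, 213 and 219 with the agonist. The groups overlapped, since agonist replicate 1 was above vehicle replicate 2, but each agonist library was below the vehicle library of its number. The log2 difference was -0.42 with a 95% interval of -0.81 to -0.03 (limma, adjusted p = 0.329, and 0.0210 with the block). In the pairs numbered 1, 2 and 3 it was -0.37, -0.40 and -0.48. With the block and without pair 1, 2 or 3 the adjusted p was 0.0503, 0.113 and 0.127.

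Tnf encodes the cytokine TNF and lies between Ltb and Lta on the minus strand (ENSMUSG00000024401.14, 35199381 to 35202007). Its FPKM was 38.5, 37.9 and 45.1 with vehicle and 35.8, 27.2 and 27.8 with the agonist. The agonist libraries lay below the vehicle libraries, although agonist replicate 1 came within 3 FPKM of the lowest vehicle value. The log2 difference was -0.41 with a 95% interval of -0.71 to -0.12 (limma, adjusted p = 0.225), and it did not pass with the block either (adjusted p = 0.0884). Of the 10 genes, Lta and Tnf had agonist values wholly below and Fasl wholly above the vehicle values, where 12.1% and 7.27% of tested genes were so separated.

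The promoter windows of these neighbours (minus strand chr17:35205302-35205601 for Lta and chr17:35201958-35202257 for Tnf, plus strand chr17:35194257-35194556 for Ltb) are set out with the same marks as that of Fasl. Lta held none of the marked patterns. Tnf held 1 match to the NF-kB pattern, which begins at base 30 after the start, and Ltb held 1 on the opposite strand, 87 bases before the start, which overlaps an NFAT core. The NF-kB pattern was in 20.8% and the AP-1 pattern in 7.79% of all windows.
Lta: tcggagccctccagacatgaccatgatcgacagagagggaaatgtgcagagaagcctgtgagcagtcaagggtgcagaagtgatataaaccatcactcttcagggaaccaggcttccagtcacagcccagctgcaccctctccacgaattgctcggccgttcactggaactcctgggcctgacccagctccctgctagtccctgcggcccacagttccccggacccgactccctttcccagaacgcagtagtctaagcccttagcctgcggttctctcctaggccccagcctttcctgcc
Tnf: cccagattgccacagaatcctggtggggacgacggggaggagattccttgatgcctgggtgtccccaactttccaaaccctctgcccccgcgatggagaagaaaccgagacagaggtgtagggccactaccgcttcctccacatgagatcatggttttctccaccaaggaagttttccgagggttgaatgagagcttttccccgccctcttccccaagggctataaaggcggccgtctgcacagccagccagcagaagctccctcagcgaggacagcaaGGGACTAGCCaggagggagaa
Ltb: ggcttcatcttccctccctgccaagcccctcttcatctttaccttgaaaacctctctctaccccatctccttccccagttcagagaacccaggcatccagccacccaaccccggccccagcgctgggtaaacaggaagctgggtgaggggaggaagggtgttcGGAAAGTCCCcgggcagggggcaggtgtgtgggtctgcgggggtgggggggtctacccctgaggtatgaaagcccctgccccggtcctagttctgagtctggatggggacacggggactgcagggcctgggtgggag

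Ltb, Tnf and Lta span 10913 bases, with 3060 bases between Ltb and Tnf and 1157 between Tnf and Lta. Within 50 kb of them 8 other gene models, microRNAs aside, were tested. None of these passed limma's test without the block, where 0.394% of all tested genes did, and 2 had an unadjusted p under 0.05 (14% of all tested genes did). A difference below 0 was found in 6 of them and in 6971 of all 12186 tested genes. Gm22589 and Gm25128 are short models that lie within Ddx39b, so their reads may not be separate from those of Ddx39b. Nfkbil1, the nearest tested neighbour of Lta, had 22.5 ± 2.26 and 22.7 ± 2.00 FPKM (SD, n = 3 per group), a log2 difference of 0.01 (limma, adjusted p = 0.967). Lst1, the nearest tested neighbour of Ltb, had 2.50 ± 0.385 and 2.34 ± 1.04 FPKM (adjusted p = 0.875). Atp6v1g2, a subunit gene of the proton-pumping vacuolar ATPase, rose with the block from 5.89 ± 1.34 to 9.31 ± 0.503 FPKM (adjusted p = 0.156 without and 0.0328 with it, and 0.0815 to 0.141 with the block and 1 pair left out). Its first part overlaps Nfkbil1 on the other strand, so its reads are uncertain while the strand setting is unknown.

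**Figure D2:**
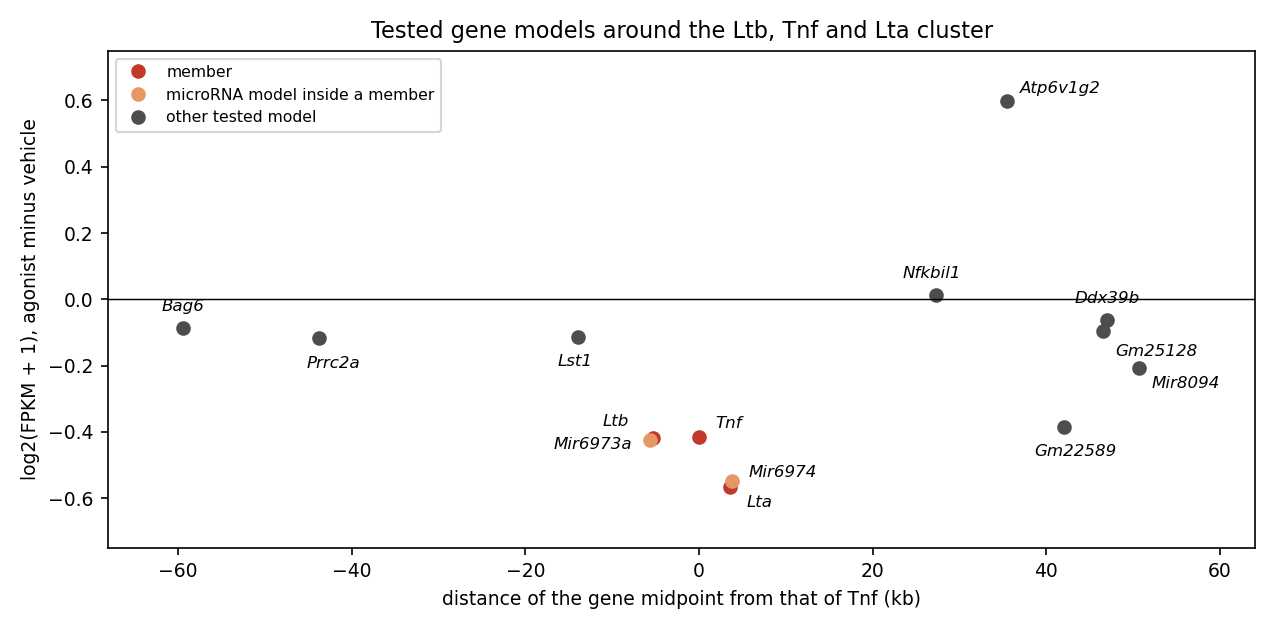
Difference in log2(FPKM + 1), agonist minus vehicle, of each tested gene model near Ltb, Tnf and Lta against the distance of its midpoint from that of Tnf in kb (red, Ltb, Tnf and Lta; orange, microRNA models inside Ltb and Lta; grey, other models). The red points lie between -0.57 and -0.41, and the other models between -0.38 (Gm22589) and 0.60 (Atp6v1g2).

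A microRNA model lies in an intron of each lymphotoxin gene, outside every annotated exon of its host. Mir6974 (minus strand of chromosome 17, 35204475 to 35204557) lies within Lta and had 36.4, 48.6 and 37.6 FPKM in vehicle libraries and 33.4, 28.3 and 21.7 FPKM in agonist libraries. These are 14.7 to 22.3% of the FPKM of Lta in the same libraries. The agonist values of Mir6974 were all below its vehicle values (limma, log2 difference -0.55, adjusted p = 0.249). Mir6973a (plus strand, 35194972 to 35195049) lies within Ltb and stood at 4.94 to 6.55% of it, with 18.9 ± 4.05 FPKM in vehicle libraries and 14.1 ± 4.62 FPKM in agonist libraries (SD, n = 3 per group; adjusted p = 0.451, 0.0426 with the block, and 0.0658 to 0.15 with the block and 1 pair left out). Reads of the hosts and of these models, on the same strand, may have been split by the counting, so their values are uncertain.

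The ratio between the subunits of the lymphotoxin heterotrimer was taken within each library. The log2 ratio of Ltb + 1 over Lta + 1 was 0.90, 0.22 and 0.39 with vehicle and 0.97, 0.41 and 0.56 with the agonist, a difference of 0.146 (exact permutation test, two-sided p = 0.5 and 0.5 adjusted over the 4 ratios). Within the pairs numbered 1, 2 and 3 the difference was 0.08, 0.19 and 0.17, all above 0, while the SD within a group was 0.353 and 0.293. Without agonist replicate 1 the difference between group means was -0.0168. The ratio of Tnf + 1 over Lta + 1 differed by 0.151 (exact permutation test, p = 0.5), with 0.35, 0.13 and -0.02 within the pairs. For Fasl and Lta the groups did not overlap, with a log2 ratio of Fasl + 1 over Lta + 1 of -6.14, -6.86 and -6.68 with vehicle and -4.38, -4.21 and -4.56 with the agonist. That difference was 2.18. The pair was set side by side because earlier results of these data had shown their opposite directions. The exact permutation test (p = 0.1, and 0.2 adjusted over the 4 ratios) therefore repeats that choice and gives no support for a difference. Its p-value also enters the adjusted values of the other ratios.

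B cells carry much Ltb and myeloid cells make TNF, so the markers of both were read beside these genes. The 5 B cell markers read summed to 5.57 to 5.90 FPKM in vehicle libraries and 3.69 to 5.82 FPKM in agonist libraries. Most of it was Cd79b, at 4.90 ± 0.271 and 3.73 ± 0.760 FPKM (SD, n = 3 per group). Its agonist values lay wholly below its vehicle values, as in 12.1% of all tested genes. Cd79b did not pass (limma, adjusted p = 0.3365 without and 0.1605 with the block). Cd79a had 0.765, 0.922 and 0.574 FPKM in vehicle and 1.05, 1.20 and 0.650 FPKM in agonist libraries, higher in each same-numbered pair, with overlapping groups. Ms4a1, Pax5 and Ebf1 were at most 0.0611 FPKM in any library. The 6 myeloid markers summed to 2.04 to 4.68 and 2.32 to 6.04 FPKM, most of it Fcer1g. Of the 6 dendritic cell markers, Siglech was listed at 0 in all libraries and the sum was at most 1.13 FPKM. The part of such cells in the levels of Ltb, Lta and Tnf was not tested.

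Cd40lg encodes CD40 ligand, the helper signal of CD4 T cells to B cells and antigen-presenting cells. The gene (ENSMUSG00000031132.1, plus strand of chromosome X, 57212143 to 57224042) had 4.74, 4.45 and 2.97 FPKM in vehicle libraries and 6.23, 7.53 and 4.2 FPKM in agonist libraries. Replicate 3 was the lowest in both groups. The groups overlapped because agonist replicate 3 lay below vehicle replicates 1 and 2. The difference on the log2 scale was 0.46 with a 95% interval of -0.05 to 0.96 (limma, adjusted p = 0.401), and with the block Cd40lg rose (adjusted p = 0.0425). With the block it did not pass with quantile normalization (adjusted p = 0.0506) or without pair 1, 2 or 3 (adjusted p = 0.0793, 0.160 and 0.140).

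Tnfsf8 encodes CD30 ligand, which binds the activation receptor CD30. The gene (ENSMUSG00000028362.2, minus strand of chromosome 4, 63831308 to 63861347) had 24.9, 12.2 and 12.8 FPKM in vehicle libraries and 32.5, 15.5 and 15.1 FPKM in agonist libraries. The libraries numbered 1 were about 2 times the others in both groups, and each agonist library was above the vehicle library of its number. The groups differed by 0.31 on the log2 scale, with a 95% interval of -0.52 to 1.14 (limma, adjusted p = 0.747), and with the block Tnfsf8 rose (adjusted p = 0.0350). The differences within pairs 1, 2 and 3 were 0.37, 0.33 and 0.22. With the block and without pair 1, 2 or 3 the adjusted p was 0.0934, 0.1497 and 0.127. Without the block and without agonist replicate 1 the difference was -0.0394.

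Tnfsf11, the gene of RANKL, and Tnfsf14, the gene of LIGHT, showed the smallest differences. RANKL acts on osteoclast precursors and dendritic cells, and LIGHT on the receptors HVEM and lymphotoxin beta receptor. Tnfsf11 (minus strand of chromosome 14, 78277445 to 78308043) had 3.89, 5.45 and 5.42 FPKM in vehicle libraries and 3.98, 5.18 and 4.505 FPKM in agonist libraries, a log2 difference of -0.09 with a 95% interval of -0.43 to 0.25 (limma, adjusted p = 0.842). Tnfsf14 (minus strand of chromosome 17, 57189492 to 57194189) had 1.79, 1.93 and 1.16 FPKM in vehicle libraries and 1.66, 1.81 and 1.03 FPKM in agonist libraries, a log2 difference of -0.07 with a 95% interval of -0.50 to 0.35 (adjusted p = 0.898). For both genes the groups overlapped, and the replicate numbers stood in the same order in both groups.

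**Figure D3:**
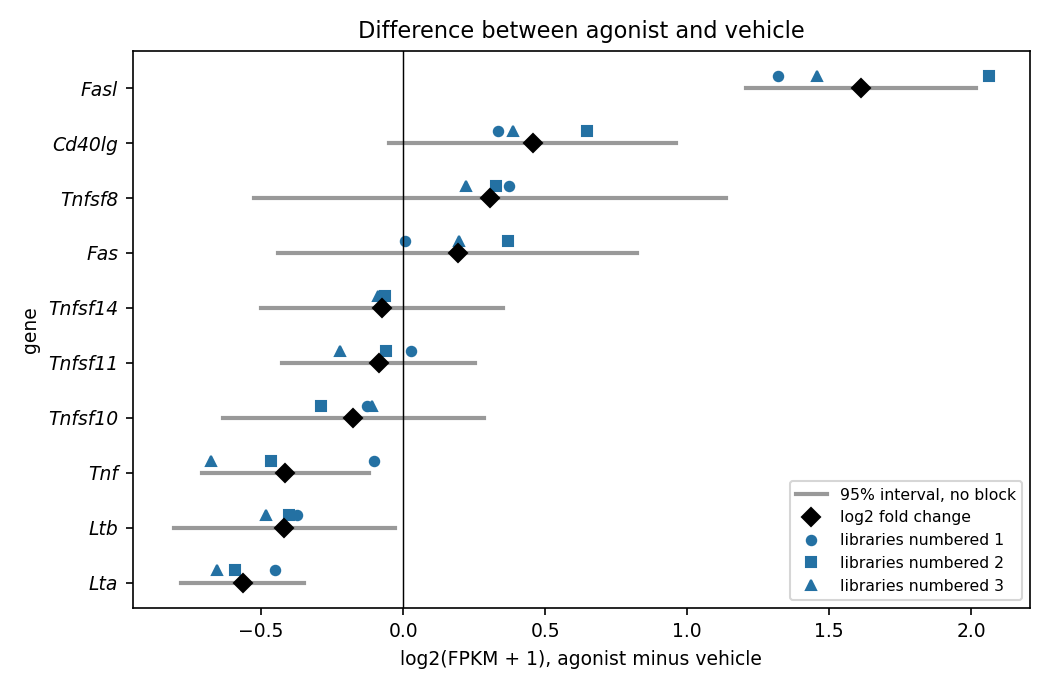
Difference in log2(FPKM + 1), agonist minus vehicle, of the 10 genes (black diamond, estimate; grey line, 95% interval of limma without the block; blue, the difference within libraries numbered 1, 2 and 3). The interval of Fasl, 1.21 to 2.02, lies above 0, those of Lta, Ltb and Tnf below 0, and the other 6 cross 0.

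Differences were also read within same-numbered libraries. In 9 of the 10 genes all 3 pairs lay on the same side of 0, with 4 higher (Fasl, Cd40lg, Tnfsf8 and Fas) and 5 lower (Lta, Ltb, Tnf, Tnfsf10 and Tnfsf14). The same held for 52.3% of all tested genes, 20.7% higher and 31.6% lower. The exception was Tnfsf11, with 0.03 in pair 1 and -0.06 and -0.22 in pairs 2 and 3. In 5 genes (Fas, Ltb, Tnfsf10, Tnfsf11 and Tnfsf14) the 3 replicate numbers stood in the same order of level in both groups, which was so for 38.4% of tested genes. These counts too are a description, since the 10 genes were chosen with earlier results known.

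Levels differed widely between the 10 genes. With vehicle the order was Ltb (324 ± 52.9 FPKM, SD, n = 3), Lta (227 ± 19.2), Tnf (40.5 ± 3.98), Tnfsf8 (16.6 ± 7.17), Tnfsf10 (13.2 ± 2.83), Fas (12.2 ± 4.72), Tnfsf11 (4.92 ± 0.893), Cd40lg (4.05 ± 0.946), Tnfsf14 (1.63 ± 0.412) and Fasl. The ranges of Tnfsf8 and Tnfsf10, of Tnfsf8 and Fas, of Tnfsf10 and Fas, of Tnfsf11 and Cd40lg, and of Tnfsf14 and Fasl overlapped. The order within these pairs is therefore not set by the data. With the agonist the order from the top was Ltb (243 ± 46.1), Lta (153 ± 6.46), Tnf (30.3 ± 4.78), Tnfsf8 (21.1 ± 9.94), Fas (13.7 ± 3.43), Tnfsf10 (11.6 ± 2.57), Fasl, Cd40lg (5.99 ± 1.68), Tnfsf11 (4.55 ± 0.601) and Tnfsf14 (1.499 ± 0.412). Here the ranges of Tnf and Tnfsf8, of Tnfsf8 and Fas, of Fas and Tnfsf10, and of Cd40lg and Tnfsf11 overlapped. Fasl thus went from rank 10 to rank 7, where its range overlapped that of Cd40lg and not that of Tnfsf14. The lymphotoxin genes made up 85.0 to 86.0% of the summed FPKM of the 10 genes with vehicle and 79.8 to 81.2% with the agonist. That sum was 608 to 691 FPKM in vehicle and 452 to 559 FPKM in agonist libraries.

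Over the 6 libraries, the 5 tested genes whose log2(FPKM + 1) followed that of Fasl most closely were Gls2, Lix1l, Cfap36, 4930431P03Rik and Madd, with Pearson correlations of 0.993 to 0.996. For Lta they were Ighj1, Cebpz, Chd1l, Gadd45g and Pradc1, with 0.993 to 0.998. Gls2, a glutaminase gene, went from 1.40 ± 0.277 to 4.86 ± 0.505 FPKM (SD, n = 3 per group; limma without the block, adjusted p = 0.0165). Ighj1, an immunoglobulin heavy chain segment and the closest to Lta, went from 50.4 ± 6.02 to 26.7 ± 1.82 FPKM (adjusted p = 0.0267). Gadd45g, a stress response gene, went from 15.1 ± 1.40 to 10.5 ± 0.460 FPKM (adjusted p = 0.102). These genes were picked from 12186 for likeness over 6 points that fall into 2 groups, and 104 genes reached 0.95 with Fasl and 193 with Lta, so the values are a description.

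Among the receptors of these ligands none passed without the block. Of 12 receptor genes, Fas included, 8 were tested. Of these 0 passed limma's test, where 0.394% of all tested genes did. An unadjusted p under 0.05 was found in 2 (14% of all tested genes had it). With the block 1 fell, where 6.41% of all tested genes fell and 10.5% passed in either direction. The median log2 difference was -0.06. Tnfrsf1a, the death domain receptor of TNF and lymphotoxin alpha, had 12.95, 12.3 and 12.8 FPKM in vehicle libraries and 10.8, 9.80 and 9.92 FPKM in agonist libraries, without overlap, and it fell with the block (limma, adjusted p = 0.174 without and 0.0352 with it, and 0.0756 to 0.171 with the block and 1 pair left out). Tnfrsf1b, the gene of a further TNF receptor, had 98.3 ± 5.43 and 82.6 ± 8.19 FPKM (SD, n = 3 per group), also without overlap. It did not pass (limma, adjusted p = 0.317 without and 0.0709 with the block). Of all tested genes 12.1% had agonist values wholly below the vehicle values. The CD30 gene Tnfrsf8 had 25.5 ± 6.16 and 25.1 ± 4.75 FPKM, the TRAIL receptor gene Tnfrsf10b 4.64 ± 0.387 and 4.07 ± 0.474 FPKM, and the HVEM gene Tnfrsf14 10.03 ± 1.47 and 10.5 ± 1.25 FPKM. The decoy TRAIL receptor genes Tnfrsf22 and Tnfrsf23 had 2.20 ± 0.280 and 0.815 ± 0.430 FPKM in vehicle libraries and 1.98 ± 0.307 and 1.08 ± 0.513 FPKM in agonist libraries. The genes of the lymphotoxin beta receptor, RANK, osteoprotegerin and CD40 (Ltbr, Tnfrsf11a, Tnfrsf11b and Cd40) did not pass the filter, with at most 0.383 FPKM in any library.

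The signalling genes below the receptors are read against 0.394% of all tested genes passing without the block, 10.5% with it and 14% at an unadjusted p under 0.05. Of 17 tested genes of death receptor signalling, limma without the block called 0, and 4 had an unadjusted p under 0.05, 1 higher and 3 lower. The median log2 difference was 0.01. Bid, which links death receptors to mitochondria, fell with the block from 8.81 ± 1.44 to 6.55 ± 1.08 FPKM (SD, n = 3 per group; adjusted p = 0.337 without and 0.0270 with it, and 0.0698 to 0.138 with the block and 1 pair left out). Of 16 TRAF adaptors and ubiquitin editors, limma called 0 (1 at an unadjusted p under 0.05), with a median of -0.06. Tnfaip3, which encodes A20, an enzyme that restrains NF-kB, rose with the block from 8.12 ± 2.33 to 12.9 ± 2.88 FPKM (adjusted p = 0.282 without and 0.0210 with it, and 0.0535 to 0.104 with the block and 1 pair left out). The apical caspase gene Casp8 had 80.3 ± 2.42 and 76.7 ± 4.56 FPKM, and Cflar, the gene of its inhibitor FLIP, 8.19 ± 0.844 and 9.19 ± 1.51 FPKM; both overlapped between groups and did not pass.

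Of 7 genes for proteases that shed these ligands and their cofactors, 4 were tested. Of these 0 passed limma's test with or without the block (0 at an unadjusted p under 0.05). Over all tested genes 0.394% passed without the block, 10.5% with it and 14% at an unadjusted p under 0.05. With so few genes tested, a count of 0 does not show a lack of response. Adam10, which cleaves Fas ligand, had 39.0 ± 3.74 and 39.8 ± 3.84 FPKM, and Adam17, which cleaves TNF, 16.5 ± 0.710 and 16.5 ± 0.771 FPKM (SD, n = 3 per group). Of 9 further ligand genes only Tnfsf4 and Tnfsf9, which encode the ligands of OX40 and 4-1BB, passed the filter. Tnfsf4 had 2.57 ± 0.920 and 2.87 ± 1.38 FPKM and Tnfsf9 2.79 ± 0.231 and 3.18 ± 0.288 FPKM, and limma called 0 of them with or without the block (0 at an unadjusted p under 0.05). Cd70 was at most 0.407 FPKM, and Tnfsf18 was listed at 0 in all libraries.

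**Figure D4:**
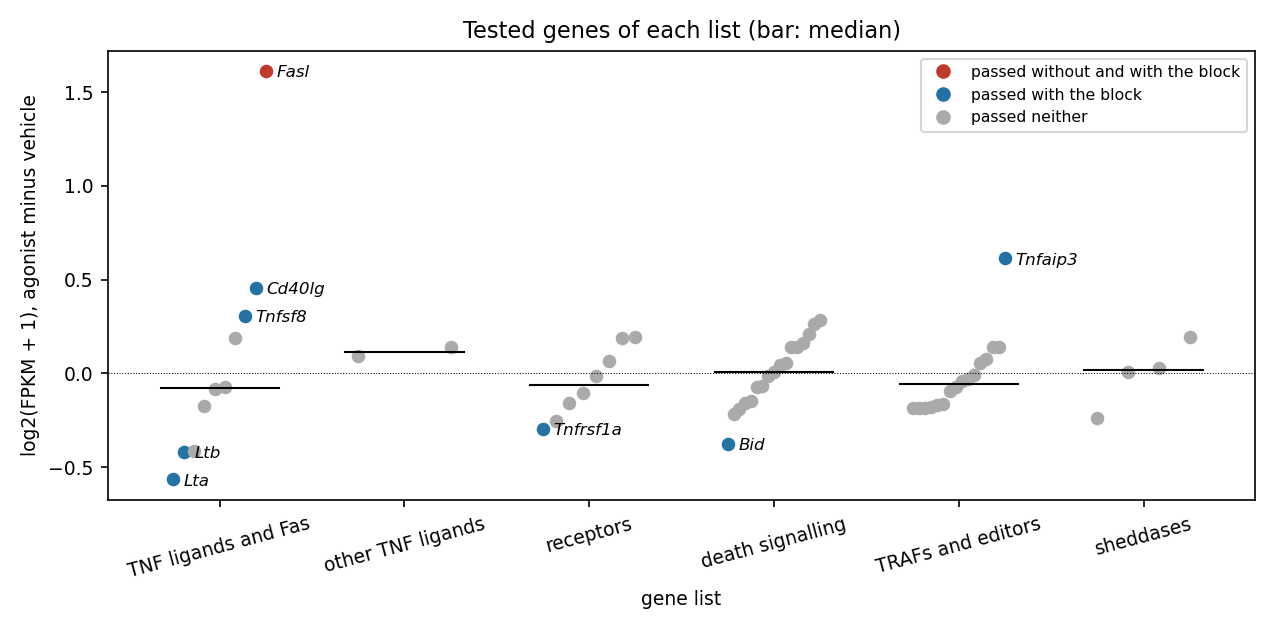
Difference in log2(FPKM + 1), agonist minus vehicle, of every tested gene in the 10 genes and in 5 related lists (red, passed limma without and with the replicate block; blue, passed with the block; grey, passed neither; bar, median of the list). Fasl, at 1.61, stands above every other point, and list medians run from -0.08 to 0.12.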

How the data were processed

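RNA was sequenced from 6 samples of sorted nTregs, from stranded poly(A) libraries per the labels' protocols. The authors deposited 1 table per library on the mm10 build, with FPKM and read coverage (a signal of mean depth per base) for each gene per the file headers. Trimming with Trim Galore and alignment with HISAT2 are recorded, per the submitters' processing notes, with no version. Which program and annotation release gave the abundances, and whether strand was used, is not given in the sources used here, so reads of opposite strands may not have been told apart. The deposited TPM column was not used. Fragment counts are not given, so no counting interval is stated.

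Rows of reference genes (identifiers beginning ENSMUSG) were summed per identifier. Genes that reached 1 FPKM in 3 or more libraries were tested as log2(FPKM + 1) with limma 3.58.1 (intensity trend, robust variances, statmod 1.5.0, R 4.3.3), with Benjamini-Hochberg adjustment over all 12186 genes and a threshold of 0.05. The fit was also run on simulated data, with changes planted only in genes of higher level than Fasl and no structure by replicate number. That run therefore does not bear on genes at the level of Fasl or on the pairing. Deviations from group means correlated at 0.512, 0.404 and 0.321 between libraries numbered 1, 2 and 3 and at -0.353 to 0.002 otherwise, so equal numbers were treated as pairs. The pairing was read from the data, not the labels, and p-values of the fit with the block can be too small for that reason. The genes, lists and ratios were chosen with earlier results of these data known. Named genes were the 10, list genes that passed in either fit, receptors above the filter, markers, tested neighbours of the cluster, and the 5 genes most like Fasl and Lta; other genes (Casp8, Cflar, Adam10, Adam17, Tnfsf4, Tnfsf9, Prf1, Gzma) were named after their values were seen. Tables were handled with Python 3.11.15, pandas 2.3.3, numpy 2.4.6 and matplotlib 3.10.9. 1 B cell marker is not reported here.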

Additional observations from a re-analysis of the deposited data

How the results depend on the processing

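Without the block, 48 genes passed over all genes tested (42 higher, 6 lower), and 1 of the 10 genes. With the replicate block these counts were 1279 and 5, and with quantile normalization as well 997 (519 higher, 478 lower, against 498 and 781) and 4. Without a filter 2 genes and 0 of the 10 passed. The counts were 75 genes with upper quartile scaling and 96 genes and 2 of the 10 with coverage in place of FPKM. Leaving out 1 library gave 0 to 133 genes and 0 to 2 of the 10, and leaving out 1 pair in the blocked fit gave 0 to 241 genes and 0 to 2 of the 10. Fits that gave 0 still had 1033 to 2557 genes at an unadjusted p under 0.05. The cause of these differences was not tested.

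Fasl kept its direction in 20 alternatives and its call in 12, with adjusted p from 0.00879 to 0.134 and a log2 difference from 0.826 (pseudocount 5) to 2.11 (pseudocount 0.1). Lta kept its direction in all 20, with adjusted p from 0.0180 to 0.280. Ltb and Tnf kept theirs too, and Tnf passed in 0 of 20, with adjusted p from 0.0521 to 0.534. With 1 library left out, signs turned for Fas without vehicle replicate 2 (range -0.0492 to 0.459), Tnfsf8 without agonist replicate 1 (-0.0394 to 0.620), Tnfsf14 without vehicle replicate 2 (0.0113) or agonist replicate 3 (-0.209 to 0.0694), and Ltb over Lta without agonist replicate 1 (-0.0168 to 0.344); the cause was not tested. With pseudocounts of 0.1 and 5 the Fasl over Fas difference was 1.90 and 0.684, and the Fasl over Lta difference 2.68 and 1.38. The replicate block changed no other call among the 10 genes than those given with them. The depth in fragments is unknown, which limits statements on genes near 1 FPKM.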
